A study of Mus musculus with 12 samples.

Results

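Chemokines are small secreted proteins that steer leukocytes, and chemokine receptors are the G protein-coupled receptors that read them. The genes described here are 54 rows of a liver mRNA-seq count table of 24411 genes whose symbols name a CC, CXC or CX3C chemokine or a receptor of these families (Ccl, Cxcl, Cx3cl, Ccr, Cxcr or Cx3cr followed by a number). The rows were picked by name, and this family was chosen with earlier results of these data known. The 54 genes are 38 ligands and 16 receptors. Bulk liver RNA of 3-month-old mice on a C57BL/6 background was compared between 3 genotypes with 3 mice each. The control mice (cont.) carried floxed *Atg7* alleles (Atg7 flox/flox) and no Cre. The Atg7-KO mice were Atg7 flox/flox;Alb-Cre, in which the albumin promoter drives Cre in hepatocytes, so that autophagy is disabled in hepatocytes while the other cells of the liver keep the gene. The Atg7-KO;p62-T352A mice, called double mutants below, carried the same floxed alleles and Alb-Cre, and in addition the T352A substitution, knocked into the endogenous p62 gene (*Sqstm1*) by prime editing in embryonic stem cells and therefore present in every cell. All 3 genotypes share the floxed alleles, and the comparison asks what losing hepatocyte autophagy does to the liver transcriptome and how much of that depends on p62 that holds KEAP1 in p62 bodies. A p62-T352A genotype with intact *Atg7* was not analysed here, so an effect of T352A alone cannot be told apart from its effect in autophagy-deficient liver.

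Chemokines fall into families by the spacing of their N-terminal cysteines. In liver, hepatocytes, Kupffer cells, endothelial cells, stellate cells and bile duct cells all make them, and they draw monocytes, neutrophils and lymphocytes from the sinusoids. Most receptors sit on leukocytes and accept several ligands, so the genes are described below by the ligand and receptor sets that work together. Inflammatory members such as *Ccl2* and *Cxcl10* are switched on by NF-kappaB and interferon signalling, while members such as *Cxcl12* are made in resting tissue.

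The promoter windows of 3 CXC ligands of chromosome 5 are shown because these genes differed in whether they passed the test. *Cxcl10* and *Cxcl9*, which lie next to each other and encode interferon-inducible ligands of CXCR3, were both higher in Atg7-KO, whereas *Cxcl1*, a neutrophil attractant, did not pass the test in any comparison. For *Cxcl1* this rested on 1 control library. Without cont. mouse 3 it passed as higher in Atg7-KO than in cont. Each run is the 250 bases before the annotated transcript start (RefSeq, GRCm38.p6), 5′ to 3′ on the strand of the gene, with motif matches in capitals.
*Cxcl10* (chr5:92348890-92349139, minus strand): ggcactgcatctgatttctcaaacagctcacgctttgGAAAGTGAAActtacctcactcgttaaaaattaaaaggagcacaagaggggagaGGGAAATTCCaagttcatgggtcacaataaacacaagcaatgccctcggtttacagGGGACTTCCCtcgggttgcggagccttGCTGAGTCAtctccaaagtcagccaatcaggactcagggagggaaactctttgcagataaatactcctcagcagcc
*Cxcl9* (chr5:92328080-92328329, minus strand): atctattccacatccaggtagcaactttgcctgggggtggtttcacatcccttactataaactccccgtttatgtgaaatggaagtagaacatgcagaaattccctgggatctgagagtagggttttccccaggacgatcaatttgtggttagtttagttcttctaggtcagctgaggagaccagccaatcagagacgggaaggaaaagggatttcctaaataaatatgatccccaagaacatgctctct
*Cxcl1* (chr5:90890995-90891244, plus strand): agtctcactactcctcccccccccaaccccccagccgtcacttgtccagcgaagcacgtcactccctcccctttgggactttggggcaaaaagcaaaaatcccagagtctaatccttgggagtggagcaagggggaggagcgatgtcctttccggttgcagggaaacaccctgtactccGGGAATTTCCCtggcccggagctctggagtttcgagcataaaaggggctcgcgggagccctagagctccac
Both strands were searched for the kappaB consensus, for an antioxidant response core (TGACNNNGC) and for an interferon-stimulated response core (GAAANNGAAA). The *Cxcl10* window held 2 matches to the kappaB consensus, which began 159 and 103 bases before the start, an interferon-stimulated response core 213 bases before it, and an antioxidant response core on the opposite strand 76 bases before it, none of them overlapping. The *Cxcl1* window held 1 kappaB site, matched on both strands at positions shifted by a single base, and the *Cxcl9* window held none of these letters. Among the 39 members with a window, 8 held the kappaB consensus, 4 the antioxidant core and 3 the interferon core. Across the windows of 27025 genes, 4.46% held the kappaB consensus, 11.5% the antioxidant core and 3.46% the interferon core. The other members with the kappaB consensus were *Ccl20*, *Ccl9*, *Ccr3*, *Ccr6*, *Cxcl2* and *Cxcl3*. A match is a description of letters and says nothing of binding.

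Libraries held 9671080 to 23285132 counts in cont., 16157269 to 18480553 in Atg7-KO and 16133620 to 17357172 in the double mutants. *Atg7* itself measured 46.4, 44.2 and 55.4 counts per 1000000 (CPM, on library sizes scaled by trimmed mean of M-values) in cont., 10.1, 9.57 and 12.0 CPM in Atg7-KO, and 29.7, 27.4 and 29.5 CPM in the double mutants. It was therefore below cont. in both Cre-carrying genotypes, and higher in the double mutants than in Atg7-KO (log2 fold change 1.45, adjusted p = 0.000164). The remaining *Atg7* RNA thus differed between the genotypes compared below, and its part in the results was not tested. The hepatocyte markers (*Alb*, *Ttr*, *Apoa1*, *Serpina1a*, *Tat*, *Cps1*) were abundant in every mouse and all 6 of 6 fell in Atg7-KO, beside 22.1% of all genes tested. *Xist*, the X-inactivation transcript, had 7 to 28 counts in the mice numbered 1 of each genotype and 8578 to 18335 counts in the others.

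In Atg7-KO livers 22 chemokine and receptor genes rose, among them the monocyte attractant *Ccl2*, the T cell attractant *Cxcl10* and the receptor *Cx3cr1*, while 5 ligands fell (*Ccl25*, *Ccl27a*, *Ccl27b*, *Cxcl11*, *Cxcl12*). A gene was called when edgeR's quasi-likelihood test, adjusted by Benjamini-Hochberg over all genes tested, gave a false discovery rate under 0.05 and the fold change was over 1.5. Of the 54 members, 37 had enough counts to be tested, 26 of them ligands and 11 receptors. Between Atg7-KO and cont., 22 were called higher, against a background of 21.6% of the 13922 genes tested, and 5 were called lower, against 22.1%. Between the double mutants and Atg7-KO, 22 were called lower (background 26.2%) and 5 higher (background 24.7%). Between the double mutants and cont., 7 were called higher (background 6.25%) and none lower (background 5.34%), where edgeR gave 2 lower at an unadjusted p under 0.05 (*Cxcl13*, *Cxcr6*) and DESeq2 called none lower. These counts describe the 37 members with enough counts. A member that passed the filter only through its high genotype had to differ, so the counts do not stand for all 54.

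Of the 22 members called higher in Atg7-KO, 15 were ligands and 7 receptors. The comparisons with Atg7-KO share the Atg7-KO mice, so their values are given side by side for each gene below and their overlap is not read as a result. The median log2 fold change of the members tested was 1.81 between Atg7-KO and cont. (1.70 with *Ccl20*, absent from cont., set to its bound), beside -0.03 over all genes tested. It was -1.42 between the double mutants and Atg7-KO, beside 0.00 over all genes, and 0.81 between the double mutants and cont., beside 0.00. Members that passed the filter only through Atg7-KO had to be higher there. They lift the median between Atg7-KO and cont. and lower that between the double mutants and Atg7-KO. Neither median stands for all 54 members. Upper-quartile scaling moved the median of all genes to 0.08 and -0.13 in the comparisons with Atg7-KO, and all 27 calls in each of them kept their direction under it.

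**Figure D1:**
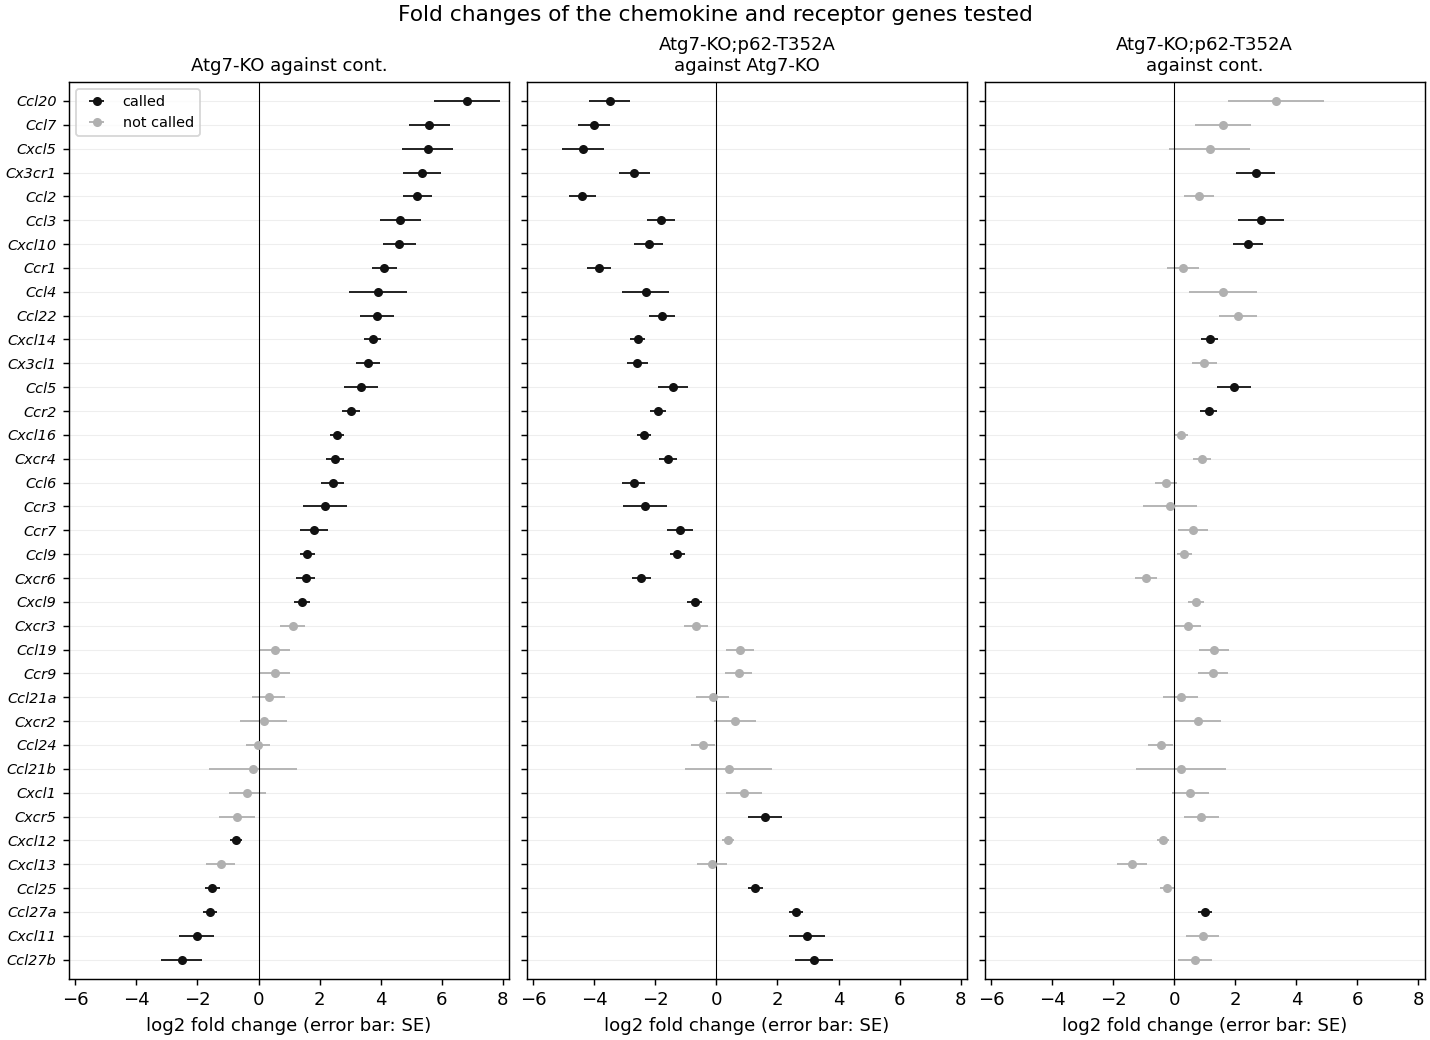
Fold changes of the 37 chemokine and chemokine receptor genes tested, ordered by the change between Atg7-KO and cont. Each point is a log2 fold change from edgeR (horizontal axis) with its SE, black where the gene was called; 22 black points lie right of 0 in the left panel and 22 left of 0 in the middle panel, which share the Atg7-KO mice, while the right panel holds 7 black points.

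The monocyte attractants of CCR2 were among the genes that changed most. *Ccl2*, the main ligand that draws monocytes out of the bone marrow, measured 0.917, 0.284 and 1.10 CPM in cont., 28.8, 26.0 and 31.1 CPM in Atg7-KO and 0.571, 1.40 and 2.09 CPM in the double mutants. Every Atg7-KO mouse was far above every other mouse, and the other genotypes overlapped. *Ccl2* rose in Atg7-KO (log2 fold change 5.20 ± 0.47, adjusted p = 5.43e-05) and was lower in the double mutants (log2 fold change -4.39 ± 0.43, adjusted p = 8.60e-05). *Ccl7*, another CCR2 ligand, measured 0, 0.0946 and 0.110 CPM in cont., 2.47, 3.00 and 3.58 CPM in Atg7-KO and 0.0714, 0.140 and 0.326 CPM in the double mutants. With 208 counts over the Atg7-KO mice and 2 over the cont. mice, its ratio was 56.4 (95% exact interval of the counting error 15.4 to 469), and the fall in the double mutants passed the test (log2 fold change -3.99 ± 0.53, adjusted p = 0.000319). Without cont. mouse 1 the fitted log2 fold change of *Ccl7* in Atg7-KO went from 5.59 to 4.79, and without double-mutant mouse 3 the fall went to -4.73. *Ccl12*, the remaining CCR2 ligand of this set, was too low to be tested, with 4, 12 and 9 counts in Atg7-KO, 1, 0 and 1 counts in cont. and 0 in every double-mutant mouse.

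The receptor CCR2, carried by inflammatory monocytes, followed the same order at lower fold. *Ccr2* measured 1.38, 1.13 and 1.98 CPM in cont., 11.8, 13.4 and 11.1 CPM in Atg7-KO and 2.50, 2.94 and 4.24 CPM in the double mutants. The 3 genotypes did not overlap, with the double mutants between the others. The rise in Atg7-KO (log2 fold change 3.03 ± 0.29, adjusted p = 6.83e-05) and the lower level in the double mutants (log2 fold change -1.90 ± 0.26, adjusted p = 0.000383) both passed the test.

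A further 5 CC ligands, *Ccl3*, *Ccl4*, *Ccl5*, *Ccl6* and *Ccl9*, which draw macrophages, T cells or other leukocytes, rose in Atg7-KO. *Ccl5*, a T cell attractant, measured 0.516, 2.55 and 3.63 CPM in cont., 17.5, 19.2 and 28.7 CPM in Atg7-KO and 6.78, 5.95 and 11.7 CPM in the double mutants. The genotypes did not overlap, and the lowest value of all was that of cont. mouse 1. *Ccl5* rose in Atg7-KO (log2 fold change 3.37 ± 0.56, adjusted p = 0.00128) and was lower in the double mutants (log2 fold change -1.42 ± 0.50, adjusted p = 0.0347). The second call was lost without Atg7-KO mouse 1, 2 or 3 or double-mutant mouse 1 or 2. With each mouse left out in turn, its log2 fold change was -1.77 to -1.17, with adjusted p up to 0.121.

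*Ccl3* and *Ccl4*, the macrophage inflammatory proteins 1-alpha and 1-beta, had low counts. *Ccl3* measured 0.115, 0 and 0.110 CPM in cont., 2.18, 1.93 and 2.43 CPM in Atg7-KO and 0.214, 0.771 and 0.849 CPM in the double mutants. Its 149 counts over Atg7-KO against 3 over cont. gave a ratio of 26.9 (95% exact counting interval 9.04 to 132), and the difference from the double mutants passed the test (log2 fold change -1.81 ± 0.47, adjusted p = 0.00943). *Ccl4* measured 0, 0 and 0.550 CPM in cont., 2.42, 1.89 and 2.56 CPM in Atg7-KO and 0.214, 0.210 and 0.914 CPM in the double mutants. Only cont. mouse 3 had *Ccl4* counts among the controls, and without that mouse the fitted change of 3.93 in Atg7-KO (SE 0.95, adjusted p = 0.00814) became 8.33. The lower *Ccl4* level in the double mutants (log2 fold change -2.32 ± 0.76, adjusted p = 0.0271) was no longer called without Atg7-KO mouse 1, 2 or 3 or double-mutant mouse 1 or 2 (adjusted p up to 0.0959), and was -3.38 without double-mutant mouse 3.

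*Ccl6* and *Ccl9*, CC chemokines found in rodents that signal through CCR1, were the CC ligands with the highest level per length in Atg7-KO. *Ccl9* measured 98.4, 53.2 and 58.5 CPM in cont., 224, 201 and 214 CPM in Atg7-KO and 72.4, 104 and 87.6 CPM in the double mutants. *Ccl6* measured 13.3, 7.56 and 5.60 CPM in cont., 53.5, 47.9 and 43.5 CPM in Atg7-KO and 4.21, 10.8 and 7.25 CPM in the double mutants. For both genes every Atg7-KO mouse lay above every other mouse, and cont. and the double mutants overlapped. *Ccl9* rose (log2 fold change 1.60 ± 0.25, adjusted p = 0.000994) and *Ccl6* rose more (log2 fold change 2.43 ± 0.38, adjusted p = 0.000860), and both were lower in the double mutants (log2 fold change -1.27 ± 0.25, adjusted p = 0.00251 for *Ccl9*; log2 fold change -2.70 ± 0.38, adjusted p = 0.000421 for *Ccl6*).

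The receptor CCR1, carried by monocytes, macrophages and neutrophils, moved in the same direction. *Ccr1* measured 0.229, 0.0946 and 0.220 CPM in cont., 3.77, 3.94 and 2.39 CPM in Atg7-KO and 0.214, 0.210 and 0.261 CPM in the double mutants. Every Atg7-KO mouse was above all others, and the other genotypes overlapped. *Ccr1* rose in Atg7-KO (log2 fold change 4.12 ± 0.41, adjusted p = 8.90e-05) and was lower in the double mutants (log2 fold change -3.83 ± 0.39, adjusted p = 9.56e-05).

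*Ccr3*, the eotaxin receptor of eosinophils, measured 0.229, 0.378 and 0.330 CPM in cont., 1.499, 1.93 and 0.768 CPM in Atg7-KO and 0, 0.210 and 0.587 CPM in the double mutants. It rose in Atg7-KO (log2 fold change 2.18 ± 0.73, adjusted p = 0.0334) and was lower in the double mutants (log2 fold change -2.33 ± 0.71, adjusted p = 0.0198), both at low counts. The first call was lost without cont. mouse 1, 2 or 3 or Atg7-KO mouse 1 or 2 (adjusted p up to 0.116), and the second without Atg7-KO mouse 1 or 2 or double-mutant mouse 2 (adjusted p up to 0.0768). Without double-mutant mouse 3 the lower level was -3.63. Of its ligands, *Ccl24* measured 4.76, 3.21 and 4.40 CPM in cont., 4.74, 4.36 and 3.29 CPM in Atg7-KO and 1.93, 5.32 and 1.89 CPM in the double mutants. The 3 genotypes overlapped for *Ccl24*, which was not called in any comparison. *Ccl11* had 0 to 4 counts in any mouse and *Ccl26* none.

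**Figure D2:**
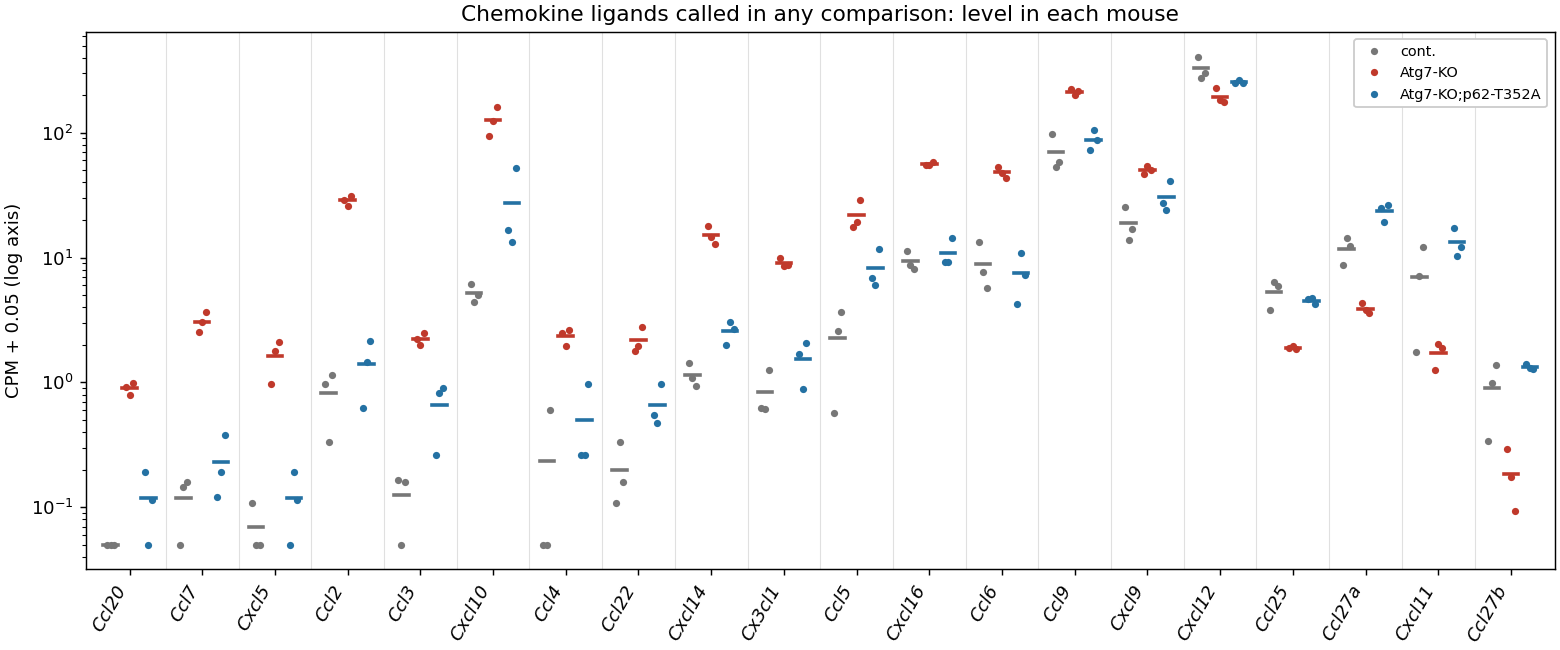
Level of each of the 20 chemokine ligands called in any comparison, ordered by the change between Atg7-KO and cont. Each point is a mouse (CPM plus 0.05 on a log axis, so that 0 can be drawn; grey cont., red Atg7-KO, blue the double mutants) and each bar the mean of 3 mice; from *Ccl20* to *Cxcl9* the Atg7-KO points lie above the others, and from *Cxcl12* to *Ccl27b* below the cont. mean.

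The interferon-inducible ligands of CXCR3, the receptor of effector T and NK cells, did not move together. *Cxcl10* measured 6.13, 4.35 and 4.95 CPM in cont., 94.0, 125 and 162 CPM in Atg7-KO and 16.7, 13.3 and 52.3 CPM in the double mutants. The genotypes did not overlap, and double-mutant mouse 3 was well above the others of its genotype. *Cxcl10* rose in Atg7-KO (log2 fold change 4.61 ± 0.54, adjusted p = 0.000193) and was lower in the double mutants (log2 fold change -2.21 ± 0.47, adjusted p = 0.00380), with a log2 fold change of -3.07 without that mouse. Exons of *Art3* overlap *Cxcl10* on the other strand, and whether the counting used strand is not given in the sources used here. *Art3* measured at most 3.53 CPM in any mouse.

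*Cxcl9* measured 25.2, 13.9 and 17.0 CPM in cont., 46.9, 54.3 and 49.9 CPM in Atg7-KO and 27.5, 23.8 and 40.7 CPM in the double mutants. Its rise was smaller (log2 fold change 1.42 ± 0.27, adjusted p = 0.00227), and its lower level in the double mutants (log2 fold change -0.71 ± 0.26, adjusted p = 0.0408) was no longer called without Atg7-KO mouse 1, 2 or 3 or double-mutant mouse 1 or 2 (adjusted p up to 0.134, log2 fold changes of -0.97 to -0.56). *Cxcl11*, of which C57BL/6 mice carry an allele that makes no functional protein, went the other way. It measured 1.72, 7.09 and 12.2 CPM in cont., 1.21, 1.97 and 1.83 CPM in Atg7-KO and 17.1, 10.2 and 12.2 CPM in the double mutants. *Cxcl11* was lower in Atg7-KO (log2 fold change -2.03 ± 0.58, adjusted p = 0.0174) and higher in the double mutants (log2 fold change 2.97 ± 0.58, adjusted p = 0.00234). Cont. mouse 1 lay within the Atg7-KO range, and the first call was lost without cont. mouse 3 (log2 fold change -1.35, adjusted p = 0.0702) and without Atg7-KO mouse 1. *Gm2673* overlaps *Cxcl11* on the other strand.

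*Cxcr3*, their receptor, measured 0.401, 1.04 and 1.10 CPM in cont., 1.35, 1.60 and 2.30 CPM in Atg7-KO and 1.14, 0.911 and 1.24 CPM in the double mutants. The Atg7-KO mice were above all others, but the difference from cont. missed the threshold (log2 fold change 1.11 ± 0.42, adjusted p = 0.0511). It passed with DESeq2's size factors in edgeR, with upper-quartile scaling and without cont. mouse 3.

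Both membrane-anchored chemokines and their receptors rose. CXCL16 and CX3CL1 sit on the cell surface and can be shed, and CXCR6 is carried by NKT and other lymphocytes of the liver. *Cxcl16* measured 11.3, 8.60 and 8.02 CPM in cont., 54.9, 55.2 and 58.0 CPM in Atg7-KO and 9.21, 9.11 and 14.4 CPM in the double mutants. *Cxcr6* measured 0.745, 0.946 and 1.10 CPM in cont., 2.18, 2.51 and 3.33 CPM in Atg7-KO and 0.428, 0.490 and 0.522 CPM in the double mutants. The Atg7-KO mice stood apart for both genes, and *Cxcr6* was lower in every double-mutant mouse than in any cont. mouse, a difference that missed the threshold (log2 fold change -0.91 ± 0.35, adjusted p = 0.125). *Cxcl16* rose in Atg7-KO (log2 fold change 2.58 ± 0.23, adjusted p = 5.11e-05) and was lower in the double mutants (log2 fold change -2.36 ± 0.23, adjusted p = 8.02e-05). *Cxcr6* did likewise (log2 fold change 1.54 ± 0.31, adjusted p = 0.00310 and log2 fold change -2.46 ± 0.32, adjusted p = 0.000304). *Zmynd15*, which overlaps *Cxcl16* on the other strand, was not called in any comparison.

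*Cx3cl1*, the fractalkine gene, measured 0.573, 0.567 and 1.21 CPM in cont., 9.91, 8.59 and 8.66 CPM in Atg7-KO and 1.64, 0.841 and 2.02 CPM in the double mutants. Its receptor gene *Cx3cr1*, carried by monocytes and some macrophages, measured 0.229, 1.04 and 0.330 CPM in cont., 18.9, 25.0 and 18.4 CPM in Atg7-KO and 2.78, 1.33 and 5.55 CPM in the double mutants. Both stood apart in Atg7-KO, and for *Cx3cr1* every double-mutant mouse was also above every cont. mouse. *Cx3cl1* rose in Atg7-KO (log2 fold change 3.57 ± 0.39, adjusted p = 0.000138) and was lower in the double mutants (log2 fold change -2.58 ± 0.35, adjusted p = 0.000352). *Cx3cr1* had the largest fold change of the receptors in Atg7-KO (log2 fold change 5.34 ± 0.62, adjusted p = 0.000188), was lower in the double mutants (log2 fold change -2.68 ± 0.49, adjusted p = 0.00174), and is overlapped by *Gm33858* on the other strand. These values of *Cx3cr1* became 6.16 without cont. mouse 2 and -3.33 without double-mutant mouse 3.

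**Figure D3:**
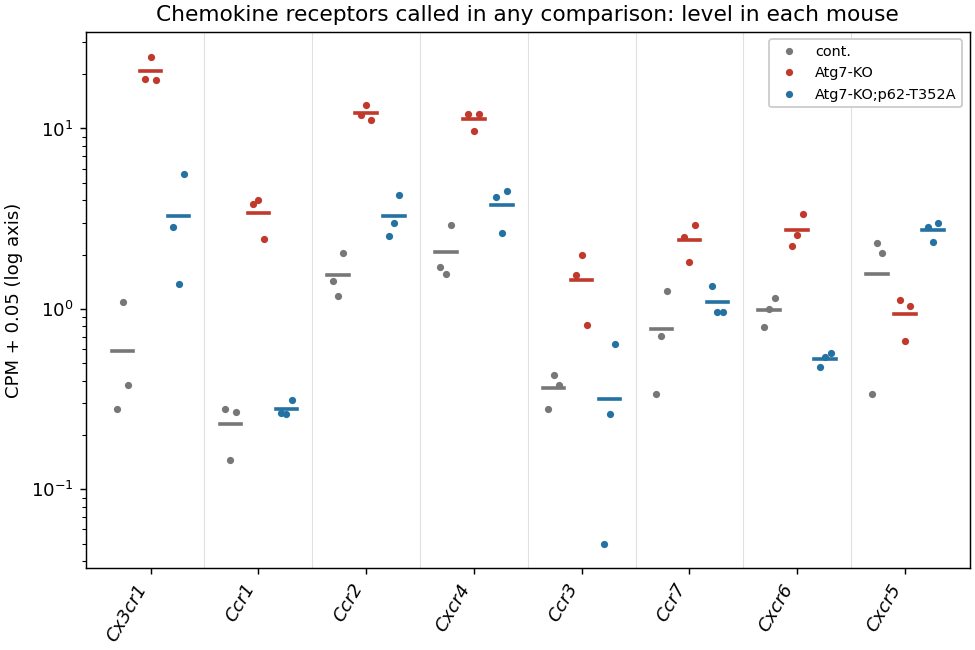
Level of each of the 8 chemokine receptors called in any comparison. Each point is a mouse (CPM plus 0.05 on a log axis; grey cont., red Atg7-KO, blue the double mutants) and each bar the mean of 3 mice; the Atg7-KO points are above all others for the 7 receptors from *Cx3cr1* to *Cxcr6*, and *Cxcr5* is instead lower in Atg7-KO than in the double mutants.

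*Cxcl12*, the constitutive ligand that retains CXCR4-bearing cells in tissue, fell in Atg7-KO. It measured 407, 276 and 299 CPM in cont., 227, 182 and 175 CPM in Atg7-KO and 249.6, 267 and 248 CPM in the double mutants. The Atg7-KO mice were below all others. The fall in Atg7-KO was small (log2 fold change -0.75 ± 0.20, adjusted p = 0.0131) and was no longer called without cont. mouse 1 (log2 fold change -0.56, under the fold limit) or without Atg7-KO mouse 2 or 3 (adjusted p up to 0.0659). Between the double mutants and Atg7-KO the difference missed the threshold (log2 fold change 0.39 ± 0.20, adjusted p = 0.126).

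The receptor of CXCL12 did not follow its ligand. *Cxcr4* measured 1.66, 1.51 and 2.86 CPM in cont., 12.0, 9.66 and 12.0 CPM in Atg7-KO and 4.14, 2.59 and 4.44 CPM in the double mutants. It rose in Atg7-KO (log2 fold change 2.50 ± 0.31, adjusted p = 0.000251) and was lower in the double mutants (log2 fold change -1.59 ± 0.29, adjusted p = 0.00154). *Cxcl14*, a CXC chemokine made by epithelia and fibroblasts, measured 1.38, 1.04 and 0.879 CPM in cont., 17.9, 14.5 and 12.7 CPM in Atg7-KO and 1.93, 3.01 and 2.61 CPM in the double mutants. The 3 genotypes did not overlap for *Cxcl14*, with the double mutants closer to cont. Its rise in Atg7-KO had the smallest adjusted p of all members (log2 fold change 3.73 ± 0.28, adjusted p = 2.37e-05), and it was lower in the double mutants (log2 fold change -2.58 ± 0.25, adjusted p = 8.60e-05).

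The neutrophil attractants that act through CXCR2 were split. *Cxcl5* measured 0.0573, 0 and 0 CPM in cont., 0.919, 1.73 and 2.05 CPM in Atg7-KO and 0, 0.140 and 0.0653 CPM in the double mutants. Its 109 counts over Atg7-KO stood against 1 over cont., a ratio of 59.1 (95% exact counting interval 10.4 to 2356), and against 3 over the double mutants, a ratio of 23.1 (7.71 to 114). *Cxcl5* was called in both comparisons (log2 fold change 5.53 ± 0.83, adjusted p = 0.000737 and log2 fold change -4.37 ± 0.69, adjusted p = 0.000774), with 7.70 in place of the first without cont. mouse 1 and -5.25 in place of the second without double-mutant mouse 2. *Cxcl1* measured 2.41, 4.73 and 19.8 CPM in cont., 6.82, 5.79 and 7.76 CPM in Atg7-KO and 15.4, 10.5 and 12.1 CPM in the double mutants. It was not called in any comparison (log2 fold change -0.37 ± 0.60, adjusted p = 0.637 in Atg7-KO), and 1 control library decided this: cont. mouse 3 had the highest value of all 9 mice, and without it *Cxcl1* was called higher in both other genotypes than in cont. and higher in the double mutants than in Atg7-KO.

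*Cxcl2* was too low for the filter, with 3, 2 and 0 counts in cont., 14, 19 and 10 in Atg7-KO and 6, 2 and 7 in the double mutants. Without the filter it was called higher in Atg7-KO (log2 fold change 2.20, adjusted p = 0.0342). *Cxcr2*, the receptor of neutrophils for these ligands, measured 0.401, 0.662 and 0 CPM in cont., 0.677, 0.205 and 0.384 CPM in Atg7-KO and 0.785, 0.350 and 0.783 CPM in the double mutants and was not called. *Cxcl3* and *Cxcr1* had at most 2 counts in a mouse, and *Cxcl15* none.

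The chemokines that organise lymphoid tissue and dendritic cell traffic changed less uniformly. *Ccr7*, which guides dendritic cells and naive T cells, measured 0.287, 0.662 and 1.21 CPM in cont., 2.47, 1.77 and 2.86 CPM in Atg7-KO and 1.29, 0.911 and 0.914 CPM in the double mutants. It rose in Atg7-KO (log2 fold change 1.81 ± 0.46, adjusted p = 0.0108) and was lower in the double mutants (log2 fold change -1.18 ± 0.43, adjusted p = 0.0396), a call lost without any 1 of the 6 mice of these genotypes (adjusted p up to 0.132). Of its ligands, *Ccl19* ranged from 0.458 to 2.09 CPM in cont., 1.77 to 2.18 CPM in Atg7-KO and 2.21 to 4.50 CPM in the double mutants, and *Ccl21a* from 0.857 to 3.78 CPM over all mice. Neither was called, nor was *Ccl21b*, with 0 to 25 counts in a mouse. These ligands share sequence with near-identical copies (45.3%, 61.3% and 100% of their 75-base stretches), so their counts are uncertain, and *Ccl21c*, with 0 to 14 counts, has no entry in the annotation used for positions.

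*Cxcl13*, the B cell attractant, measured 4.70, 2.46 and 1.43 CPM in cont., 1.11, 1.15 and 1.45 CPM in Atg7-KO and 0.500, 1.47 and 1.37 CPM in the double mutants and missed the threshold (log2 fold change -1.24 ± 0.47, adjusted p = 0.0560 in Atg7-KO). Its receptor gene *Cxcr5* measured 0.287, 2.27 and 1.98 CPM in cont., 1.06, 0.616 and 0.981 CPM in Atg7-KO and 2.78, 2.31 and 2.94 CPM in the double mutants. *Cxcr5* was called higher in the double mutants than in Atg7-KO (log2 fold change 1.59 ± 0.56, adjusted p = 0.0366), a call lost without any 1 of these 6 mice (adjusted p up to 0.124). *Bcl9l*, which overlaps it on the other strand, fell in Atg7-KO.

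*Ccl20*, which acts through CCR6, was seen almost only in Atg7-KO. It had no counts in any cont. mouse and measured 0.871, 0.740 and 0.939 CPM in Atg7-KO and 0.143, 0 and 0.0653 CPM in the double mutants. In Atg7-KO it was at least 3.25-fold higher than a floor of 3 counts in each cont. mouse and passed the test (adjusted p = 0.0018), and its ratio between Atg7-KO and the double mutants was 12.3 (95% exact counting interval 4.01 to 61.4). The fitted fall of -3.49 went to -4.38 without double-mutant mouse 1. *Ccr6* had 0 to 3 counts in a mouse. *Ccl22*, a ligand of CCR4 made by dendritic cells and macrophages, measured 0.0573, 0.284 and 0.110 CPM in cont., 1.74, 1.89 and 2.73 CPM in Atg7-KO and 0.500, 0.420 and 0.914 CPM in the double mutants. The 3 genotypes did not overlap, and *Ccl22* rose in Atg7-KO (log2 fold change 3.87 ± 0.56, adjusted p = 0.000572) and was lower in the double mutants (log2 fold change -1.77 ± 0.43, adjusted p = 0.00684). Both *Ccl20* and *Ccl22* passed the filter only through their Atg7-KO counts and so had to differ. Without cont. mouse 2 the rise of *Ccl22* was 4.59. *Ccl17*, the other CCR4 ligand, had 1 to 5 counts and *Ccr4* 0 to 2.

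Besides *Cxcl11* and *Cxcl12*, 3 CC ligands fell in Atg7-KO. *Ccl25*, known for drawing CCR9-bearing cells to thymus and gut, measured 3.72, 6.34 and 5.82 CPM in cont., 1.84, 1.89 and 1.79 CPM in Atg7-KO and 4.57, 4.69 and 4.18 CPM in the double mutants. The Atg7-KO mice were below all others. *Ccl25* fell in Atg7-KO (log2 fold change -1.51 ± 0.25, adjusted p = 0.00123) and was higher in the double mutants (log2 fold change 1.28 ± 0.25, adjusted p = 0.00225). *Elavl1* overlaps it on the other strand and was not called in any comparison. *Ccr9*, its receptor, ranged from 0.370 to 1.44 CPM and was not called.

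*Ccl27a*, a CCR10 ligand known from skin, measured 8.71, 14.2 and 12.4 CPM in cont., 4.26, 3.78 and 3.54 CPM in Atg7-KO and 25.1, 19.4 and 26.6 CPM in the double mutants. The 3 genotypes did not overlap, and the double mutants were the highest. *Ccl27a* fell in Atg7-KO (log2 fold change -1.60 ± 0.23, adjusted p = 0.000524), and was higher in the double mutants than in Atg7-KO (log2 fold change 2.62 ± 0.23, adjusted p = 5.69e-05). *Ccl27b* measured 0.287, 0.946 and 1.32 CPM in cont., 0.242, 0.123 and 0.0427 CPM in Atg7-KO and 1.36, 1.26 and 1.24 CPM in the double mutants, with calls in the same directions (log2 fold change -2.52 ± 0.67, adjusted p = 0.0128 and log2 fold change 3.20 ± 0.63, adjusted p = 0.00237), which became -3.15 and 3.82 without Atg7-KO mouse 1. The *Ccl27* genes share sequence with near-identical copies (33.3% of the 75-base stretches of *Ccl27a* and 98% of *Ccl27b*), so the split of reads between them is uncertain. *Il11ra1* overlaps *Ccl27a* on the other strand and had the same directions, with 40.3 to 48.5 CPM in cont., 19.6 to 21.1 CPM in Atg7-KO and 50.6 to 67.3 CPM in the double mutants. The part of these overlaps in the *Ccl27a* result was not tested. *Ccl28* and *Ccr10* had at most 5 counts in a mouse.

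The remaining members were also too low to be tested. *Ccl8* had 13, 4 and 15 counts in Atg7-KO and 0 to 2 in every other mouse. *Ccl1*, *Ccr8* and *Cxcl17* had at most 4 counts. Without a filter, 52 of the 54 members could be fitted, and *Ccl8* (adjusted p = 0.0323) and *Ccl12* (adjusted p = 0.00702) were then called lower in the double mutants than in Atg7-KO.

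Between the double mutants and cont., the 7 members called higher were *Ccl3*, *Ccl5*, *Ccr2*, *Cx3cr1*, *Cxcl10*, *Cxcl14* and *Ccl27a*. The largest differences were those of *Ccl3* (log2 fold change 2.83 ± 0.75, adjusted p = 0.0387), *Cx3cr1* (log2 fold change 2.66 ± 0.63, adjusted p = 0.0270), *Cxcl10* (log2 fold change 2.41 ± 0.50, adjusted p = 0.0175) and *Ccl5* (log2 fold change 1.95 ± 0.55, adjusted p = 0.0495). *Cxcl14* (log2 fold change 1.16 ± 0.28, adjusted p = 0.0301), *Ccr2* (log2 fold change 1.13 ± 0.29, adjusted p = 0.0358) and *Ccl27a* (log2 fold change 1.02 ± 0.22, adjusted p = 0.0205) differed less. The ratio of *Ccl3* rested on 27 counts against 3 (7.66, 95% exact counting interval 2.36 to 39.5). For each of the 7 every double-mutant mouse lay above every cont. mouse. The 7 were picked by this same comparison, so their separation is not read as a further result.

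These 7 calls were near the threshold, and edgeR's glmTreat, which tests against a fold change of 1.5, called 0 of them. With 1 mouse left out, 7 of the 7 were still called without cont. mouse 1 (with *Ccl9* and *Cxcl9* added), 4 without cont. mouse 3 (with *Cxcl1* and *Cxcr4* added as higher and *Cxcl13* as lower), 2 without cont. mouse 2 or without Atg7-KO mouse 1, 2 or 3, and 4, 3 and 1 without double-mutant mouse 1, 2 and 3. *Cx3cr1* had a log2 fold change of 3.49 without cont. mouse 2. *Cxcl10* was lost without cont. mouse 2 (adjusted p = 0.0652) and had a log2 fold change of 1.54 without double-mutant mouse 3, and *Ccl27a* was lost without double-mutant mouse 1 or 3 (adjusted p up to 0.0778). The other 5 calls were each lost without 6 or 7 of the 9 mice, Atg7-KO mice 1, 2 and 3 and double-mutant mouse 3 among them for all 5 and cont. mouse 2 for all but *Cx3cr1*, with adjusted p up to 0.163. Atg7-KO mice enter this comparison through the spread pooled over genotypes and through the shared filter, scaling and adjustment over all genes tested.

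Genes on the same chromosome are given together because many chemokine genes arose by local duplication. The 11 CC ligands on chromosome 11 (chr11:82035571-83664683) included *Ccl2*, *Ccl7*, *Ccl5*, *Ccl9*, *Ccl6*, *Ccl3* and *Ccl4*. Only these 7 were tested. Each rose in Atg7-KO (background 21.6%) and had a lower level in the double mutants (background 26.2%). *Ccl7*, *Ccl3* and *Ccl4* passed the filter only through their Atg7-KO counts and so had to differ. The 7 of 7 is therefore partly set by the filter. The same limit holds for *Ccr1* and *Ccr3* on chromosome 9, *Cxcl5* on chromosome 5, *Ccl20* on chromosome 1 and *Ccl22* on chromosome 8. The summed level of all 11 CC ligands was 63.8 to 113 CPM in cont., 302 to 332 CPM in Atg7-KO and 84.6 to 124 CPM in the double mutants. Of the 9 receptors on chromosome 9, which are spread over chr9:44511787-124113557 and do not all lie together, 7 were tested and 5 rose. Of the 9 CXC ligands on chromosome 5, 6 were tested, 3 rose and 1 fell. Of the 5 CC ligands on chromosome 4, all tested, the 2 *Ccl27* genes fell and the other 3 were not called in Atg7-KO. The summed CPM of all 16 receptors was 6.53 to 11.9 in cont., 55.3 to 61.3 in Atg7-KO and 13.2 to 22.98 in the double mutants. The summed CPM of all 38 ligands was 411 to 595, 771 to 824 and 463 to 540.

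**Figure D4:**
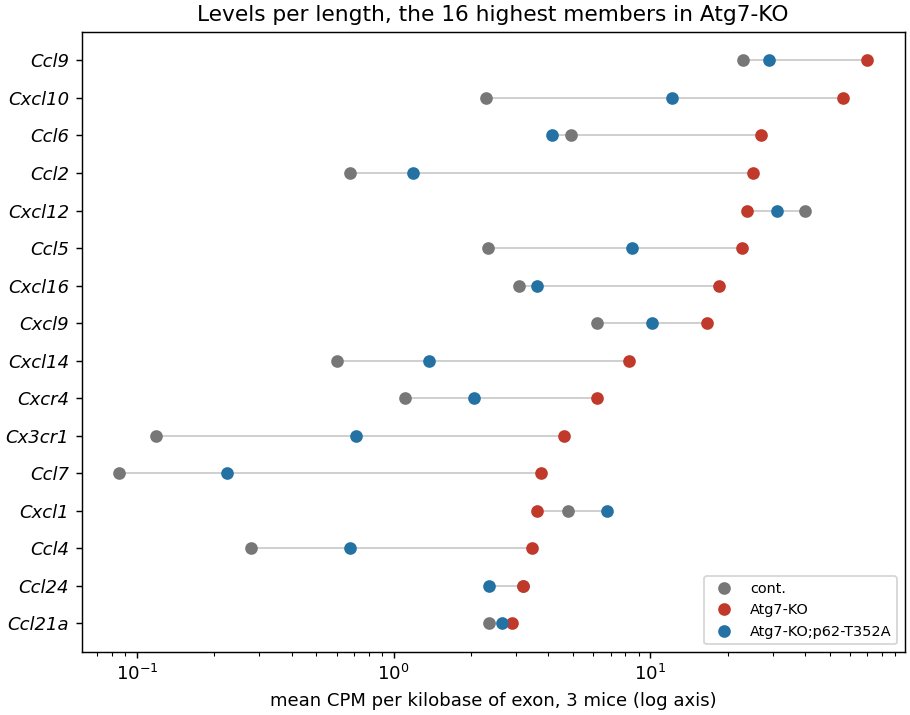
Mean level of the 16 members with the highest level per length in Atg7-KO (CPM per kilobase of annotated exon, log axis; each point is the mean of 3 mice, grey for cont., red for Atg7-KO and blue for the double mutants). *Cxcl12* leads in cont. at 40.0, *Ccl9* and *Cxcl10* lead in Atg7-KO at 70.0 and 56.3, and *Ccl24* has cont. and Atg7-KO points on top of each other.

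Levels between genes were compared per kilobase of annotated exon. In cont., *Cxcl12* (40.0 CPM per kb, mean of 3 mice) and *Ccl9* (23.004) stood above all other members, the next being *Cxcl9* (6.21) and *Ccl27a* (4.95). In Atg7-KO the order was *Ccl9* (70.0), *Cxcl10* (56.3), *Ccl6* (26.9), *Ccl2* (25.2), *Cxcl12* (23.8), *Ccl5* (22.7), *Cxcl16* (18.5) and *Cxcl9* (16.7), and the values from *Ccl6* to *Ccl5* lay close together. In the double mutants *Cxcl12* (31.2) and *Ccl9* (28.9) led again, followed by *Cxcl10* (12.2), *Cxcl9* (10.2) and *Ccl27a* (9.97). The receptors with the highest level per length in Atg7-KO were *Cxcr4* (6.21) and *Cx3cr1* (4.61).

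Related genes outside the name rule were read from 4 lists. The shares over all genes tested to set beside each list were 21.6% higher and 22.1% lower in Atg7-KO. In the double mutants against Atg7-KO they were 26.2% lower and 24.7% higher. Of 16 atypical receptors and other chemoattractant genes, 9 rose in Atg7-KO and 7 were not called, and 10 were lower in the double mutants against Atg7-KO with 1 higher. *C5ar1*, the complement C5a receptor, rose by 3.45 (adjusted p = 0.000168), *Cd74*, which binds MIF, by 2.76 (adjusted p = 1.50e-05) and *Pf4*, a platelet CXC chemokine, by 2.27 (adjusted p = 0.000490) on the log2 scale. *Mif* was not called, and *Rarres2*, which encodes chemerin, was the one that was higher in the double mutants. The median log2 fold change of this list was 0.99 in Atg7-KO and -1.18 in the double mutants against Atg7-KO.

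Of 20 genes that signal from chemokine receptors, 18 were in the table and 17 were tested. In Atg7-KO 10 rose and 7 were not called, and 11 were lower in the double mutants (medians 1.05 and -1.41). *Rgs2* (log2 fold change 2.97, adjusted p = 3.16e-05), *Elmo1* (2.53, adjusted p = 9.91e-05) and *Pik3cg* (2.04, adjusted p = 0.00158) changed most in Atg7-KO. Of 23 inducers and other regulators of chemokines, 19 were tested, 13 rose, 1 fell, and 13 were lower and 1 higher in the double mutants (medians 1.01 and -0.85). This list holds inhibitors too, so its counts are not counts of inducers. The receptors *Tnfrsf12a* (3.69, adjusted p = 9.39e-05) and *Tlr2* (3.59, adjusted p = 4.98e-05) rose, as did *Tnf* (3.40, adjusted p = 0.00906). *Tnf* had only 0, 2 and 2 counts in cont. and passed the filter only through Atg7-KO (21, 38 and 28 counts). Its difference between the double mutants (3, 6 and 18 counts) and Atg7-KO was not called (adjusted p = 0.179). *Nfkbia*, the NF-kappaB inhibitor, was the gene that fell (-1.11, adjusted p = 0.0197). *Ifng*, *Il6* and *Osm* were too low to be tested and *Il17a* was at 0 in every mouse. Of 14 adhesion molecules that leukocytes use to enter tissue, 13 were tested, 10 rose, 1 fell (*Selp*), and 11 were lower and 1 higher in the double mutants (medians 1.24 and -1.69). *Itgax* (3.10, adjusted p = 0.00116) and *Vcam1* (2.81, adjusted p = 2.93e-05) changed most.

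Markers of several other cell types also changed. The shares over all genes tested to set beside the marker counts were 21.6% higher and 22.1% lower in Atg7-KO. In the double mutants against Atg7-KO they were 26.2% lower and 24.7% higher. In bulk liver RNA, more cells of a type and more RNA per cell cannot be told apart. All 8 monocyte and infiltrating macrophage markers rose in Atg7-KO and were lower in the double mutants, with a summed level of 62.5 to 132 CPM in cont., 1234 to 1381 CPM in Atg7-KO and 162 to 277 CPM in the double mutants. Of 10 T and NK cell markers 9 were in the table and tested, of which 6 rose and 3 were lower in the double mutants (summed 6.99 to 9.67, 22.6 to 24.1 and 9.59 to 11.6 CPM). Of 6 Kupffer cell markers 3 rose and 1 fell, and in the double mutants against Atg7-KO 3 were lower and 2 higher (summed 227 to 273, 492 to 560 and 149.6 to 307 CPM). Of the neutrophil markers 7 of 8 were in the table and 3 were tested. These 3 rose, and 2 were lower in the double mutants (summed 2.31 to 2.74, 6.57 to 12.8 and 2.81 to 3.64 CPM).

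Of 6 cholangiocyte markers 5 rose, and 4 were lower in the double mutants against Atg7-KO (summed 33.6 to 51.6, 829 to 1024 and 181 to 266 CPM). Of 7 stellate cell and fibroblast markers 5 rose and 4 were lower in the double mutants (231 to 284, 554 to 592 and 329 to 511 CPM). *Sox9* and *Dcn*, which rose in Atg7-KO, were not among the lower ones. Of 6 dendritic cell markers 2 rose and 2 were lower in the double mutants (5.67 to 31.0, 12.2 to 14.5 and 12.1 to 22.98 CPM). *Spp1* stands in both the cholangiocyte list and the monocyte and infiltrating macrophage list. It measured 967, 874 and 771 CPM in Atg7-KO, most of both sums in that genotype, so these sums are not separate readings. Of 6 B and plasma cell markers 1 fell and 5 were not called (6.93 to 18.2, 7.03 to 10.6 and 8.16 to 14.2 CPM). Of 6 sinusoidal endothelial markers 1 rose and 1 fell, and 2 were lower in the double mutants against Atg7-KO (265 to 510, 265 to 280 and 213 to 247 CPM). Counts of 1 or 2 in a list of 6 lie near the shares over all genes and are not read as a change. The summed hepatocyte markers were 72143 to 123654 CPM in cont., 35471 to 37585 CPM in Atg7-KO and 109009 to 124411 CPM in the double mutants. *Alb* made up most of these sums. In the double mutants 5 of the 6 were called higher than in Atg7-KO. The exception, *Cps1*, was called lower in the double mutants than in cont. (log2 fold change -1.17, adjusted p = 0.0280). No marker in the table was at 0 in a whole genotype. The part of these cells in the chemokine results was not tested.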

How the data were processed

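Liver RNA was extracted, enriched for poly(A) RNA (NEBNext Ultra II) and sequenced as 75-base single-end reads. The authors trimmed the reads (Trim Galore), aligned them to mm10 (STAR) and deposited estimated counts per gene from RSEM in 1 table. The versions, the gene annotation and the strand setting are not given in the sources used here. Of the deposited values 8.34% were not whole and were rounded to whole numbers. RSEM splits reads that match several genes, which makes the counts of near-identical genes uncertain, and lengths play no part in the tests. The total per mouse was 9671080 to 23285132 counts, so a count of 3, used as the floor, is under 1 CPM in every mouse. A single count is 0.110 CPM in cont. mouse 3, so the floor is not small beside the members with the lowest levels. The mice are separate animals, and counts of mice of a genotype differed by far more than sampling noise (chi-square per degree of freedom 13.3 to 305).

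The 3 genotypes were fitted together in edgeR 4.0.16 (R 4.3.3) with trimmed mean of M-values scaling, filterByExpr by genotype and the quasi-likelihood F test, in 3 contrasts without further terms. The SE was taken from the F statistic. The authors used DESeq2, which is an alternative here (version 1.42.0). On simulated counts for Atg7-KO against cont., with 13691 genes, 98% of 200 genes changed by a fold of 4 were called, as were 13 of 13491 unchanged genes. The changed genes were drawn from the more abundant genes, and every gene had the same dispersion of 0.08 between mice. The 98% therefore does not describe members with low counts. Intervals and floors cover counting error only. Gene positions and exon lengths came from GENCODE vM21 (GRCm38, the same build as mm10) and promoter windows from RefSeq. Figures were drawn with matplotlib 3.10.9.

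The members and gene lists were chosen with earlier results of these data known. Every member is named at least by its counts, and values per mouse are given for each member called in any contrast and for 15 well-known members; other lists are given as counts with the called genes of largest change. Alternatives were other scaling (DESeq2 size factors, upper quartile), DESeq2, glmTreat against a fold of 1.5, the false discovery rate alone, no filter or 10 counts in every mouse, the mouse number as a block, the 20 genes with most counts left out, each mouse left out, and the mice numbered 1 left out. The 3 p62-T352A mice were not analysed here. A further row that fits the name rule stayed in the fit of all genes but is not reported here, and counts, medians and sums over the members leave it out.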

Additional observations from a re-analysis of the deposited data

How the results depend on the processing

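Over 19 alternatives no call changed direction, and 45 of the 61 calls of a member in a contrast were made in every alternative that tested them. Requiring 10 counts in every mouse left 14 members, by construction mostly those with counts in cont., and gave 7 higher in Atg7-KO against cont., 3 higher and 7 lower in the double mutants against Atg7-KO, and 3 higher in the double mutants against cont. In that last comparison glmTreat called 0 of the 7, and the cause was not tested. Leaving out 1 mouse gave 21 to 23 higher and 4 to 6 lower in Atg7-KO against cont., 4 to 6 higher and 17 to 23 lower in the double mutants against Atg7-KO, and 1 to 9 higher and 0 to 1 lower in the double mutants against cont. (the 1 was *Cxcl13*, without cont. mouse 3). Leaving out the mice numbered 1, all with low *Xist*, gave 9 higher and 0 lower in the double mutants against cont. The mouse numbers were not taken to pair the samples, since the correlation was not positive for every number (mean correlation of deviations 0.22, -0.03 and 0.25 for numbers 1, 2 and 3; 6 of 9 mice correlated best with their own number); with the replicate block, 3 of the 7 calls against cont. were made (21 higher and 5 lower in Atg7-KO against cont.; 21 lower and 4 higher in the double mutants against Atg7-KO). The filter on low counts left 17 members untested, of which *Cxcl2*, *Ccl8* and *Ccl12* were called in a comparison without it; for the others a difference was not detectable at this depth.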
